A study of Homo sapiens with 8 samples.

Results

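The genes described here encode the chaperones and folding enzymes of the endoplasmic reticulum (ER), the machinery of ER-associated degradation (ERAD), and the sensors that adjust both. The group holds 37 genes, taken as a list of symbols and matched by GENCODE release 29 to Ensembl IDs among the 58395 genes of the count table. All 37 were found, and all 37 were among the 15637 genes that passed the filter on low counts. RNA was measured in AB8 cells, a human line derived from podocytes, the filtering cells of the kidney glomerulus. The 4 induced libraries were made 48 h after doxycycline was added to cells that hold an inducible transgene (pIND21_hCrb2+GFP_S267A in the labels): human CRB2, GFP and the S267A change. The 4 non-induced libraries came from cells with the same transgene that were not induced. Both groups are numbered 1 to 4 in the labels, with no word on the meaning of a number or on whether the replicates were separate cultures. The sources used here do not say whether the modified cells are 1 clone. Induced cells differ from the others by the inducer, by CRB2, by GFP and by the S267A change together, and these cannot be told apart.

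Secreted and membrane proteins fold in the ER with help from Hsp70, Hsp90 and lectin chaperones, while disulfide isomerases and oxidases form their disulfide bonds. Proteins that fail to fold are recognised by lectins, passed back through the membrane and degraded, which is the work of ERAD. When unfolded proteins build up, the membrane sensors ATF6, IRE1 (gene ERN1) and PERK (gene EIF2AK3) start the unfolded protein response. Cleaved ATF6 and the spliced product of XBP1 raise transcription of chaperone and ERAD genes, and PERK acts through translation and ATF4. Podocytes carry a high load of membrane and matrix proteins, and ER retention of slit diaphragm and collagen mutants is known in inherited glomerular disease.

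ATF6 and XBP1 act on short promoter elements. The ER stress element (ERSE) reads CCAAT, then 9 bases of any kind, then CCACG. ERSE-II reads ATTGG, then any 1 base, then CCACG. Each was searched on both strands of RefSeq promoter windows (GRCh38.p14) of 250 bases before to 50 after a gene start. Windows were given for 33 of the 37 members, and a gene with several windows was counted once. An ERSE stood in 8 of the 33 members (24.2%), against 25 of 27305 genes (0.0916%), so that 8 of those 25 genes were members. ERSE-II stood in 3 of 33 (9.09%), against 19 of 27305 (0.0696%). The element TGACGTGG stood in 2 of 33 members, HYOU1 and TXNDC5 (6.06%, against 0.927% of all genes), and in HYOU1 it overlaps an ERSE-II. The 5-base motif CCACG, which both longer elements contain, stood in 25 of 33 members (75.8%) and in 42.1% of all genes. The ERSE sites of the members that the results turn on are given below from 5′ to 3′ on the gene's strand, with the letters that fix the element in capitals. A site that lies on the opposite strand reads CGTGG, then ATTGG. Only sites wholly before a RefSeq start are shown, and those of HSP90B1, CANX, CRELD2 and PDIA6 lie within the gene as GENCODE draws it, after its first base.
HSPA5 chr9:125241386-125241414 (- strand): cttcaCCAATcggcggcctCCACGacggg
HSP90B1 chr12:103930211-103930239 (+ strand): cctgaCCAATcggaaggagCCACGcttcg
HSP90B1 chr12:103930316-103930344 (+ strand): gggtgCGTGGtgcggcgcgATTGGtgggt
CALR chr19:12938379-12938407 (+ strand): ccacgCGTGGtcgaccatcATTGGtcggt
CANX chr5:179698773-179698801 (+ strand): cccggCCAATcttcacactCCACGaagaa
CRELD2 chr22:49918549-49918577 (+ strand): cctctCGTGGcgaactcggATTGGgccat
PDIA6 chr2:10812848-10812876 (- strand): ccggaCCAATgagccgcagCCACGgcttg
ERO1B chr1:236282178-236282206 (- strand): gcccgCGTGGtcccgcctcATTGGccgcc
XBP1 chr22:28800598-28800626 (- strand): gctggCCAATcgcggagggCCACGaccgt

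The ERSE-II sites, shown because their genes lack the longer element, were found in HERPUD1, in SDF2L1 and at a pair of places in HYOU1.
HERPUD1 chr16:56932020-56932040 (+ strand): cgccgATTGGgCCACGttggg
SDF2L1 chr22:21642109-21642129 (+ strand): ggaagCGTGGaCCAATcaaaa
HYOU1 chr11:119057375-119057395 (- strand): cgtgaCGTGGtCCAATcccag
HYOU1 chr11:119057269-119057289 (- strand): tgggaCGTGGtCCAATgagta
A match describes the letters in the window and does not show that a factor binds there.

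Counted reads ran from 16829454 to 23081616 per library, and a count of 0 allows up to 3 reads, which is 0.13 to 0.178 CPM (reads scaled to a library of 1000000), for counting error only. CRB2, the induced gene, stood at 1734, 4252, 4599 and 4481 CPM in induced libraries 1 to 4, against 8.31, 26.01, 26.4 and 21.8 CPM in non-induced libraries 1 to 4. The induced libraries were far above the non-induced ones in CRB2, as labelled. The libraries numbered 1 stood apart in both groups: the first principal component, 62% of the variance, put them at -60.4 (induced) and -53.1 (non-induced), against 11.2 to 19.9 in the other induced and 18.6 to 24.2 in the other non-induced libraries. Same-numbered libraries deviated together (correlations across genes of 0.648 to 0.911), so values below come from the fit that treats the number as a block, and the fit without it stands beside them where the call differs. Of the podocyte markers, NPHS1 had at most 0.0238 CPM on average in a group, while SYNPO had 41.3 ± 10.3 CPM in induced and 39.6 ± 13.4 CPM in non-induced libraries. Markers of other kidney and blood cells differed in level. The 4 tubular markers were near 0 and summed to 0.429 to 0.569 CPM in induced and 0.327 to 0.42 CPM in non-induced libraries, with LRP2 and UMOD at 0. The 4 immune markers summed to 2.19 to 2.94 CPM in induced and 3.41 to 3.92 CPM in non-induced libraries, and the 4 endothelial markers to 0.619 to 1.11 CPM in induced and 0.718 to 1.09 CPM in non-induced libraries, with KDR at 0. CSF1R and LST1 lay wholly lower in induced libraries and did not pass (log2 change -0.65, SE 0.22, adjusted p = 0.0586 for CSF1R, log2 change -0.58, SE 0.24, adjusted p = 0.129 for LST1). The 3 mesangial markers summed to 12.3 to 17.6 CPM in induced and 10.9 to 12.9 CPM in non-induced libraries, nearly all of it PDGFRB, and ITGA8 was at 0. PDGFRB (log2 change 0.34, SE 0.095, adjusted p = 0.0299; 0.388 without it) and the podocyte marker PODXL (log2 change 0.49, SE 0.14, adjusted p = 0.035; 0.467 without it) rose with the block, at 3.72 ± 0.456 CPM in induced and 2.64 ± 0.631 CPM in non-induced libraries for PODXL. The podocyte marker WT1, at 2.54 ± 1.47 CPM in induced and 3.18 ± 1.68 CPM in non-induced libraries, did not pass (log2 change -0.32, SE 0.16, adjusted p = 0.211) and was lower in 3 of 4 pairs. Their part in the results was not tested.

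Several chaperones, lectins and ERAD genes were called higher in induced cells with the replicate block, by small amounts, and others of each kind did not pass. No member was called lower in either fit. With the replicate block, 15 of 37 members rose and 0 fell at an adjusted p under 0.05, where 7.51% of all tested genes rose and 6.29% fell. The median log2 change of the members was 0.19, against 0.0003 over all tested genes, and 34 of 37 lay above 0, against 50.1% of all tested genes. Without the block 0 members passed over all genes by edgeR, where 0.032% of tested genes rose and 0.0064% fell. Of the members, 12 were higher at an unadjusted p under 0.05, against 5.12% of tested genes, and DESeq2 called 6 higher. Those 6 were HSP90B1, DNAJC3, PDIA3, CALR, CANX and SEL1L, where DESeq2 called 80 of 14023 genes higher. Without both libraries numbered 1 the unblocked edgeR fit called 14 members higher, where 242 of 15769 genes rose. All 4 induced libraries lay above all 4 non-induced libraries for 8 members and below for 0, where 3.82% of tested genes lay wholly above and 3.22% wholly below. Pair by pair, 20 members were higher and 1 was lower in all 4 pairs, against 18.6% and 17% of tested genes. The block calls of DNAJC3, PDIA3, CANX, SEL1L and ERO1B held with each pair left out, and the other 10 were lost without at least 1 pair. Without pair 1 the count was 19, without pair 2 it was 10, and without pair 3 or pair 4 it was 6. Calls over all tested genes moved as well: 808 of 15769 rose without pair 1 and 1118 of 15624 without pair 2. Without pair 3 it was 706 of 15640, and without pair 4 it was 427 of 15841. In bulk RNA, a change in the level per cell and a change in the share of cells that express a gene cannot be told apart.

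**Figure D1:**
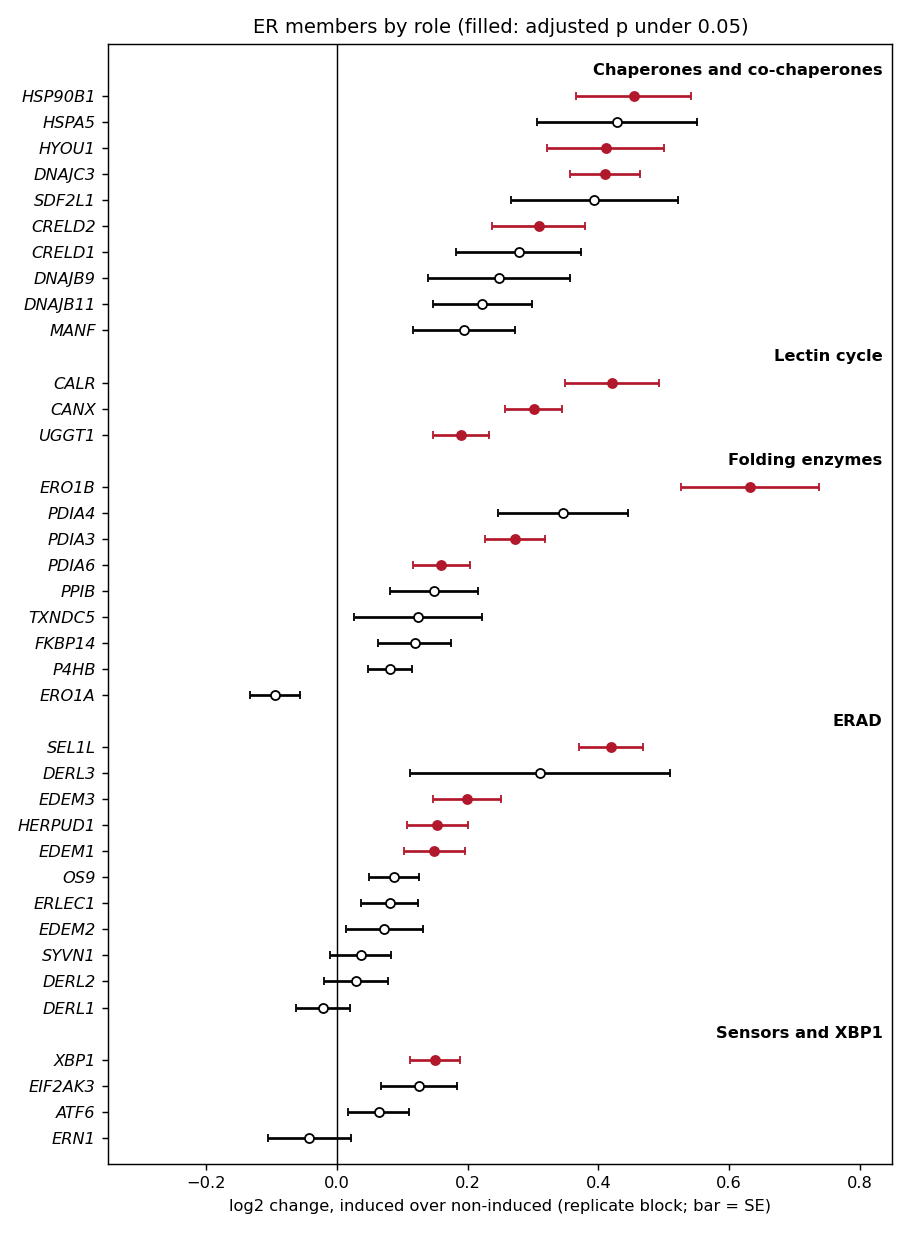
Log2 change of each of the 37 members, induced over non-induced, from the fit with the replicate block (points), with its standard error (bars), grouped by role and n = 4 libraries per group. Filled red points passed an adjusted p of 0.05; the values ran from -0.09 for ERO1A to 0.63 for ERO1B.

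Of the major chaperones, HSP90B1 and HYOU1 rose with the block and HSPA5 did not pass. HSPA5 (BiP), the ER Hsp70 and the chaperone that holds the sensors inactive, stood at 1620, 1064, 1131 and 988 CPM in induced libraries 1 to 4, against 1565, 681, 736 and 747 CPM in non-induced libraries 1 to 4 (ENSG00000044574, chromosome 9, 125234853 to 125241330, minus strand; GRCh38). Induced libraries 2 to 4 lay above non-induced 2 to 4, while both libraries numbered 1 lay above all others. The pair ratios were 1.03, 1.56, 1.54 and 1.32-fold in pairs 1 to 4, and HSPA5 did not pass with the block (log2 change 0.43, SE 0.12, adjusted p = 0.116) or without it (adjusted p = 0.787). It passed without pair 1 (adjusted p = 3.20e-05) and not without pair 2, 3 or 4 (0.24 to 0.33), and it passed by DESeq2 with the block (0.0283).

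HSP90B1 (GRP94), the ER Hsp90, had 1059, 1229, 1185 and 993 CPM in induced libraries 1 to 4, against 964, 801, 786 and 717 CPM in non-induced libraries 1 to 4 (ENSG00000166598, chromosome 12, 103930107 to 103953645, plus strand). Every induced library lay above every non-induced one. HSP90B1 rose with the block (log2 change 0.45, SE 0.088, adjusted p = 0.0304; 0.214 without it), and the call was lost without pairs 2, 3 and 4 in turn (adjusted p 0.0548, 0.0607 and 0.173) and kept without pair 1 (1.86e-06). HYOU1 (GRP170), a large Hsp70 relative that exchanges nucleotide on BiP, had 343, 357, 338 and 285 CPM in induced libraries and 325, 244, 235 and 202 CPM in non-induced ones. Non-induced library 1 lay above induced library 4, and the other 3 non-induced libraries lay below every induced one. HYOU1 rose with the block (log2 change 0.41, SE 0.089, adjusted p = 0.0427; 0.415 without it), and the call was lost without pairs 2, 3 and 4 in turn (adjusted p 0.11, 0.111 and 0.212) and kept without pair 1 (1.88e-06). SDF2L1, a partner of BiP and its J-proteins, had 44.3, 44.4, 47.8 and 41.1 CPM in induced libraries and 46.3, 30.2, 31.1 and 29.2 CPM in non-induced ones. Non-induced library 1 lay above 3 of the 4 induced libraries, and SDF2L1 did not pass (log2 change 0.39, SE 0.13, adjusted p = 0.122). It passed without pair 1 (3.53e-05; 0.322, 0.284 and 0.368 without pairs 2, 3 and 4) and by DESeq2 with the block (0.00497).

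The J-domain co-chaperones hand unfolded chains to BiP. DNAJC3 (P58IPK) had 90.5, 89.99, 92.1 and 81.3 CPM in induced libraries 1 to 4, against 79.6, 66.6, 64.5 and 56.9 CPM in non-induced libraries 1 to 4 (ENSG00000102580, chromosome 13, 95677139 to 95794989, plus strand). The groups did not overlap, and each induced library lay above its same-numbered partner by 1.14, 1.35, 1.43 and 1.43-fold. DNAJC3 rose with the block (log2 change 0.41, SE 0.053, adjusted p = 4.49e-04; 0.248 without it) and passed without each pair (adjusted p 2.19e-05, 0.00178, 0.0024 and 0.00804). DNAJB11 (ERdj3) had 74.6, 92.8, 86.00 and 76.2 CPM in induced libraries and 71.98, 65.8, 70.4 and 74.2 CPM in non-induced ones. Its groups did not overlap either, but induced libraries 1 and 4 lay just above the highest non-induced library, and it did not pass (log2 change 0.22, SE 0.076, adjusted p = 0.0978). DNAJB9 (ERdj4), a low-abundance member with 8.52 ± 1.35 CPM in induced and 7.27 ± 2.18 CPM in non-induced libraries, was higher in pairs 2 to 4 and lower in pair 1 (log2 ratios -0.13, 0.50, 0.37 and 0.28). It did not pass with all pairs (log2 change 0.25, SE 0.11, adjusted p = 0.15) and passed without pair 1 (0.0349; 0.329 to 0.459 without another pair).

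CRELD2, an ER stress-inducible secretory protein with EGF-like domains, had 42.4, 51.2, 48.1 and 41.9 CPM in induced libraries 1 to 4, against 38.7, 38.5, 32.8 and 38.6 CPM in non-induced libraries 1 to 4. All induced libraries were above all non-induced ones, by the least in pair 4. CRELD2 rose with the block (log2 change 0.31, SE 0.071, adjusted p = 0.0168; 0.32 without it), and the call was lost without pairs 2 and 3 in turn (adjusted p 0.0619 and 0.0537) and kept without pairs 1 and 4 (0.0118 and 0.0234). Its paralog CRELD1 had 9.37 ± 1.44 CPM in induced and 7.78 ± 1.45 CPM in non-induced libraries and did not pass (log2 change 0.28, SE 0.095, adjusted p = 0.0673). MANF, a BiP-binding protein that is also secreted, had 106, 98.7, 103 and 85.2 CPM in induced libraries and 111, 78.3, 77.5 and 79.7 CPM in non-induced ones. Non-induced library 1 was the highest of all 8, and MANF did not pass (log2 change 0.19, SE 0.078, adjusted p = 0.154). It passed without pair 1 (0.0106; 0.344, 0.349 and 0.311 without pairs 2, 3 and 4).

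**Figure D2:**
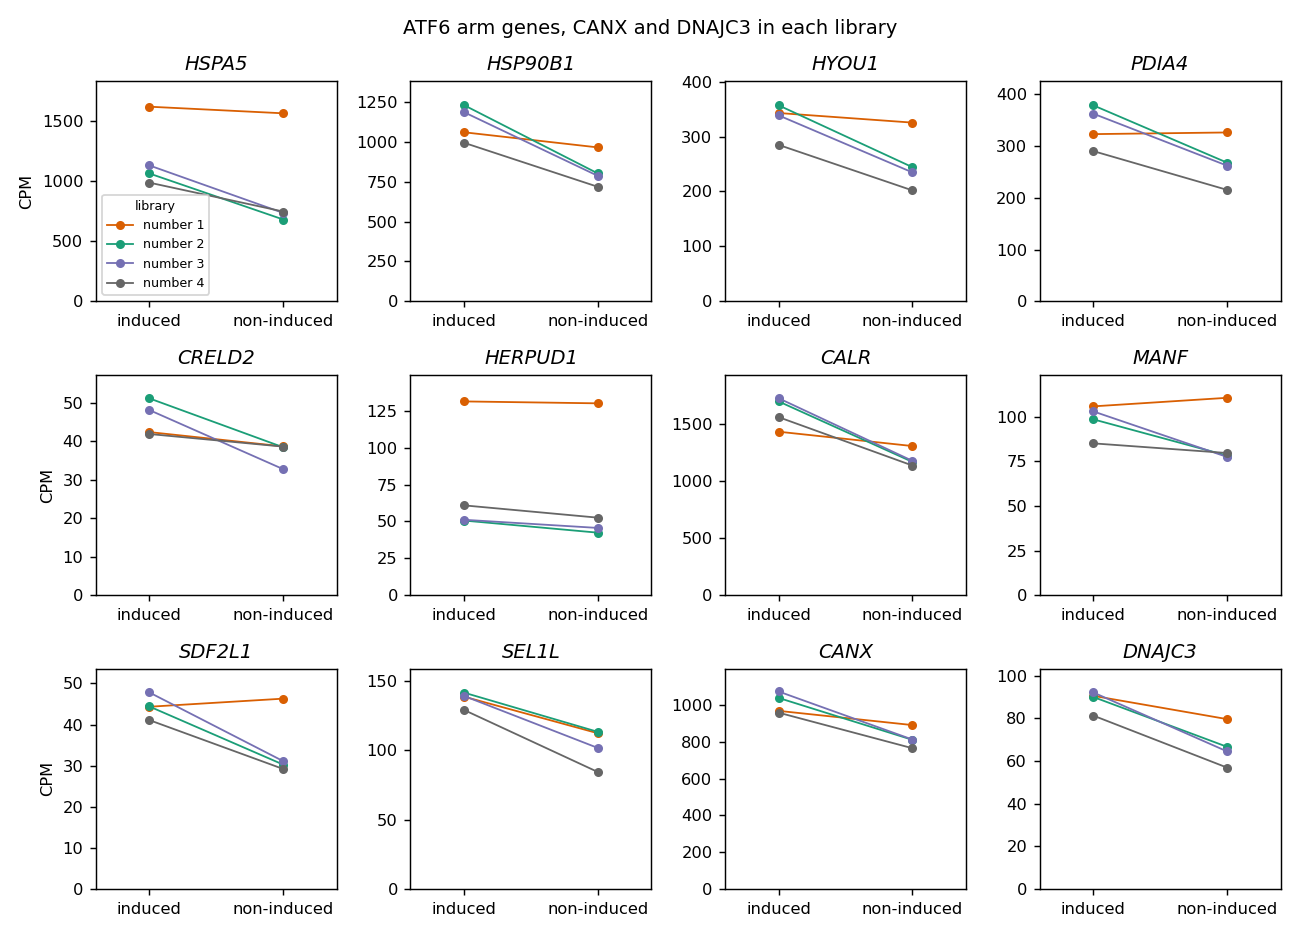
CPM of the 10 ATF6 arm genes, CANX and DNAJC3 in each library, induced left and non-induced right, with same-numbered libraries joined by a line; every axis starts at 0. Lines 2 to 4 slope down toward non-induced cells in every panel, while line 1 is nearly flat for HSPA5 (1620 against 1565 CPM) and HERPUD1 (131.5 against 130.2 CPM).

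Calreticulin and calnexin hold glycoproteins through their sugars while they fold. All 3 members of this lectin cycle rose with the block, where 7.51% of all tested genes rose. CALR, the most abundant member per length, had 1435, 1701, 1729 and 1563 CPM in induced libraries 1 to 4, against 1309, 1170, 1179 and 1138 CPM in non-induced libraries 1 to 4 (ENSG00000179218, chromosome 19, 12938578 to 12944489, plus strand). The lowest induced library, number 1, lay above the highest non-induced library, also number 1. CALR rose with the block (log2 change 0.42, SE 0.071, adjusted p = 0.0117; 0.129 without it), and the call was lost without pair 4 (adjusted p 0.108) and kept without pairs 1, 2 and 3 (1.86e-06, 0.032 and 0.0212). CANX, its membrane-bound relative, had 969.6, 1040, 1075 and 959.8 CPM in induced libraries 1 to 4, against 892, 812, 813 and 766 CPM in non-induced libraries 1 to 4 (ENSG00000127022, chromosome 5, 179678628 to 179730925, plus strand). CANX rose with the block (log2 change 0.30, SE 0.044, adjusted p = 7.88e-04; 0.205 without it) and passed without each pair (adjusted p 2.19e-05, 0.0028, 0.006 and 0.015). UGGT1, the enzyme that puts glucose back on misfolded glycoproteins and so returns them to these lectins, had 131, 169, 170.5 and 141 CPM in induced libraries and 128, 147, 143 and 116 CPM in non-induced ones. Its groups overlapped, since induced libraries 1 and 4 lay below non-induced libraries 2 and 3, but it was higher in all 4 pairs. UGGT1 rose with the block (log2 change 0.19, SE 0.043, adjusted p = 0.00942; 0.655 without it), and the call was lost without pairs 3 and 4 in turn (adjusted p 0.0737 and 0.0763) and kept without pairs 1 and 2 (0.00205 and 0.0249).

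Of the 9 folding enzymes 3 rose and 0 fell with the block, where 7.51% of all tested genes rose and 6.29% fell. Their median log2 change was 0.15. PDIA3 (ERp57), the isomerase that works with the lectins, had 489, 560.3, 551 and 496 CPM in induced libraries 1 to 4, against 458, 435, 422 and 419 CPM in non-induced libraries 1 to 4 (ENSG00000167004, chromosome 15, 43746392 to 43773279, plus strand). Its groups did not overlap, and PDIA3 rose with the block (log2 change 0.27, SE 0.046, adjusted p = 0.0022; 0.214 without it) and passed without each pair (adjusted p 1.27e-04, 0.00776, 0.0155 and 0.0265). PDIA6, an isomerase found with BiP, had 434, 502, 493 and 462 CPM in induced libraries and 440.3, 435, 408 and 408 CPM in non-induced ones. It was higher in pairs 2 to 4 and level in pair 1, where the log2 ratio was -0.020. PDIA6 rose with the block (log2 change 0.16, SE 0.044, adjusted p = 0.0289; 0.443 without it), and the call was lost without pairs 2, 3 and 4 in turn (adjusted p 0.0904, 0.195 and 0.146) and kept without pair 1 (0.002). PDIA4 (ERp72) had 323, 379, 362 and 290.2 CPM in induced libraries and 326, 268, 262 and 215 CPM in non-induced ones, with the same flat pair 1, and did not pass (log2 change 0.35, SE 0.099, adjusted p = 0.0967). It passed without pair 1 (4.55e-06; 0.231 to 0.332 without another pair) and by DESeq2 with the block (0.0426). P4HB, the classical disulfide isomerase and a subunit of collagen prolyl hydroxylase, had 955, 1261, 1205 and 1138 CPM in induced libraries and 946, 1156, 1124 and 1073 CPM in non-induced ones. Its differences within pairs were small, at 1.01, 1.09, 1.07 and 1.06-fold, and it did not pass (log2 change 0.081, SE 0.034, adjusted p = 0.131).

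ERO1B and ERO1A are the oxidases that recharge the isomerases. ERO1B had 3.75, 10.98, 9.86 and 7.41 CPM in induced libraries 1 to 4, against 3.08, 6.54, 6.25 and 4.55 CPM in non-induced libraries 1 to 4 (ENSG00000086619, chromosome 1, 236215555 to 236281985, minus strand), so that library 1 was the lowest of each group and each induced library lay above its partner. ERO1B rose with the block (log2 change 0.63, SE 0.11, adjusted p = 0.00163; 0.634 without it), with the greatest change among the 37 members, and passed without each pair (adjusted p 9.48e-04, 0.00935, 0.011 and 0.0148). ERO1A, the more abundant oxidase, had 101, 105, 111 and 96.6 CPM in induced libraries and 106, 116, 121 and 98.9 CPM in non-induced ones. It was the only member lower in all 4 pairs, by little, and it did not pass (log2 change -0.095, SE 0.038, adjusted p = 0.117). A direct test of the difference between the oxidases was not made. PPIB, a proline isomerase of the cyclophilin family, had 389 ± 23.1 CPM in induced and 351 ± 25.5 CPM in non-induced libraries (log2 change 0.15, SE 0.067, adjusted p = 0.197; 0.00751 without pair 1, and 0.391 to 0.46 without another pair). FKBP14, a proline isomerase that acts on collagens, had 44.8 ± 4.03 CPM in induced and 41.2 ± 3.17 CPM in non-induced libraries (log2 change 0.12, SE 0.055, adjusted p = 0.175). TXNDC5, a thioredoxin-domain isomerase, had 8.25 ± 0.733 CPM in induced and 7.57 ± 1.13 CPM in non-induced libraries (log2 change 0.12, SE 0.098, adjusted p = 0.447), and 60.6% of its exon bases are shared with the readthrough gene BLOC1S5-TXNDC5, listed at 0 in all libraries. How reads in the shared exons were assigned is not stated in the labels.

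**Figure D3:**
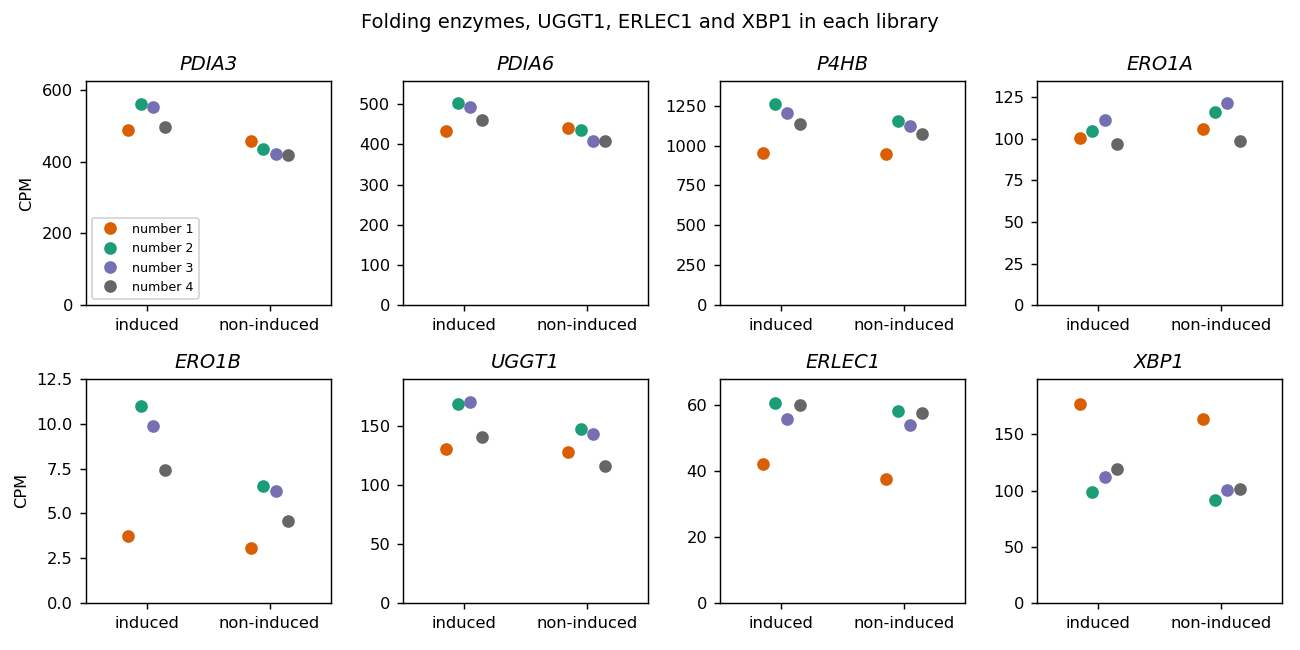
CPM of 6 folding enzymes and lectin-cycle genes, ERLEC1 and XBP1 in each library, induced left and non-induced right, coloured by library number; every axis starts at 0. PDIA3 shows groups that do not overlap (489 to 560.3 against 419 to 458 CPM), whereas XBP1 and ERLEC1 differ mainly between the libraries numbered 1 and the rest.

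Of the 11 ERAD genes 4 rose and 0 fell with the block, where 7.51% of all tested genes rose and 6.29% fell. Their median log2 change was 0.088. SEL1L, the adaptor of the HRD1 ubiquitin ligase, had 139, 142, 139 and 129 CPM in induced libraries 1 to 4, against 112, 113, 102 and 84.3 CPM in non-induced libraries 1 to 4 (ENSG00000071537, chromosome 14, 81471549 to 81533861, minus strand). Every induced library lay above every non-induced library, and the pair ratios were 1.23, 1.25, 1.37 and 1.53-fold. SEL1L had the smallest p of the 37 members with the block (log2 change 0.42, SE 0.049, adjusted p = 1.74e-04; 0.213 without it) and passed without each pair (adjusted p 1.34e-04, 1.15e-04, 0.00108 and 0.00101). SYVN1, the HRD1 ligase itself, had 38.9, 42.1, 42.2 and 40.1 CPM in induced libraries and 39.9, 41.5, 40.6 and 37.3 CPM in non-induced ones. The groups overlapped over most of their range, and SYVN1 did not pass (log2 change 0.036, SE 0.046, adjusted p = 0.661). Its exons overlap those of FAU on the same strand and MRPL49 on the opposite strand over 7.24% and 6.48% of its exon bases.

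HERPUD1, a membrane protein that gathers the ligase complex, had 132, 50.6, 51.1 and 60.9 CPM in induced libraries 1 to 4, against 130.2, 42.4, 45.6 and 52.6 CPM in non-induced libraries 1 to 4. The libraries numbered 1 held more than 2 times the level of the others in both groups, and within pairs the induced library was higher by 1.01, 1.19, 1.12 and 1.16-fold. HERPUD1 rose with the block (log2 change 0.15, SE 0.047, adjusted p = 0.0434; 0.97 without it), and the call was lost without pairs 2, 3 and 4 in turn (adjusted p 0.146, 0.148 and 0.186) and kept without pair 1 (0.0186). EDEM1 and EDEM3, which trim mannose to mark glycoproteins for degradation, had log2 changes of 0.15 and 0.20 and were higher in all 4 pairs. EDEM1 stood at 56.7, 60.8, 58.7 and 53.5 CPM in induced libraries and 47.8, 59.5, 53.96 and 46.3 CPM in non-induced ones, with overlapping groups (log2 change 0.15, SE 0.047, adjusted p = 0.0485 with the block; 0.681 without it), and the call was lost without pairs 1, 3 and 4 in turn (adjusted p 0.198, 0.129 and 0.196) and kept without pair 2 (0.0255). EDEM3 stood at 39.1, 34.95, 32.1 and 28.6 CPM in induced libraries and 33.8, 32.6, 26.6 and 24.6 CPM in non-induced ones (log2 change 0.20, SE 0.052, adjusted p = 0.0214 with the block; 0.726 without it), and the call was lost without pairs 1, 3 and 4 in turn (adjusted p 0.0678, 0.139 and 0.0861) and kept without pair 2 (0.0208). EDEM2, which starts the trimming, had 30.4 ± 1.34 CPM in induced and 28.9 ± 1.68 CPM in non-induced libraries and did not pass (log2 change 0.072, SE 0.059, adjusted p = 0.464).

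The derlins, which form part of the channel through the membrane, did not pass. DERL1 had 73.5, 79.5, 77.6 and 79.6 CPM in induced libraries and 70.7, 80.6, 77.8 and 86.4 CPM in non-induced ones (log2 change -0.022, SE 0.042, adjusted p = 0.78). DERL2 had 63.2, 76.4, 78.1 and 72.9 CPM in induced libraries and 66.5, 68.3, 72.4 and 77.8 CPM in non-induced ones (log2 change 0.029, SE 0.049, adjusted p = 0.747). For both, pairs pointed in different directions and the groups overlapped. DERL3 was the lowest member, at 2.09 ± 0.468 CPM in induced and 1.72 ± 0.714 CPM in non-induced libraries (log2 change 0.31, SE 0.20, adjusted p = 0.336), and 77% of its exon bases lie opposite exons of SMARCB1, which had 18448 reads over the 8 libraries against 308 for DERL3. Whether reads were counted by strand is not stated in the labels. The lectins that deliver glycoproteins to the ligase, OS9 and ERLEC1, did not pass. OS9 had 138 ± 10.8 CPM in induced and 129.8 ± 9.15 CPM in non-induced libraries (log2 change 0.088, SE 0.038, adjusted p = 0.146). ERLEC1 had 54.7 ± 8.67 CPM in induced and 51.9 ± 9.73 CPM in non-induced libraries (log2 change 0.080, SE 0.043, adjusted p = 0.243). It stood at 42.1 and 37.5 CPM in the induced and the non-induced library numbered 1, and at 53.9 CPM or more in the other 6.

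Among the sensors and their factor, only XBP1 passed. XBP1 had 177, 98.3, 112 and 119 CPM in induced libraries 1 to 4, against 164, 91.7, 100.1 and 102 CPM in non-induced libraries 1 to 4. Library 1 was the highest of each group, and each induced library was above its partner by 1.08, 1.07, 1.12 and 1.18-fold. XBP1 rose with the block (log2 change 0.15, SE 0.038, adjusted p = 0.0177; 0.919 without it), and the call was lost without pairs 3 and 4 in turn (adjusted p 0.0998 and 0.11) and kept without pairs 1 and 2 (0.033 and 0.0248). Counts per gene do not tell spliced from unspliced XBP1, and the spliced form is the active one. ATF6 had 71.1 ± 2.87 CPM in induced and 68.1 ± 5.63 CPM in non-induced libraries (log2 change 0.064, SE 0.047, adjusted p = 0.404), EIF2AK3 had 23.9 ± 1.39 CPM in induced and 21.9 ± 1.62 CPM in non-induced libraries (log2 change 0.13, SE 0.058, adjusted p = 0.175), and ERN1 had 19.5 ± 2.50 CPM in induced and 20.1 ± 2.30 CPM in non-induced libraries (log2 change -0.043, SE 0.063, adjusted p = 0.711). The groups overlapped for these 3 sensors, whose activation is by cleavage or phosphorylation of the protein and is not measured by their RNA.

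**Figure D4:**
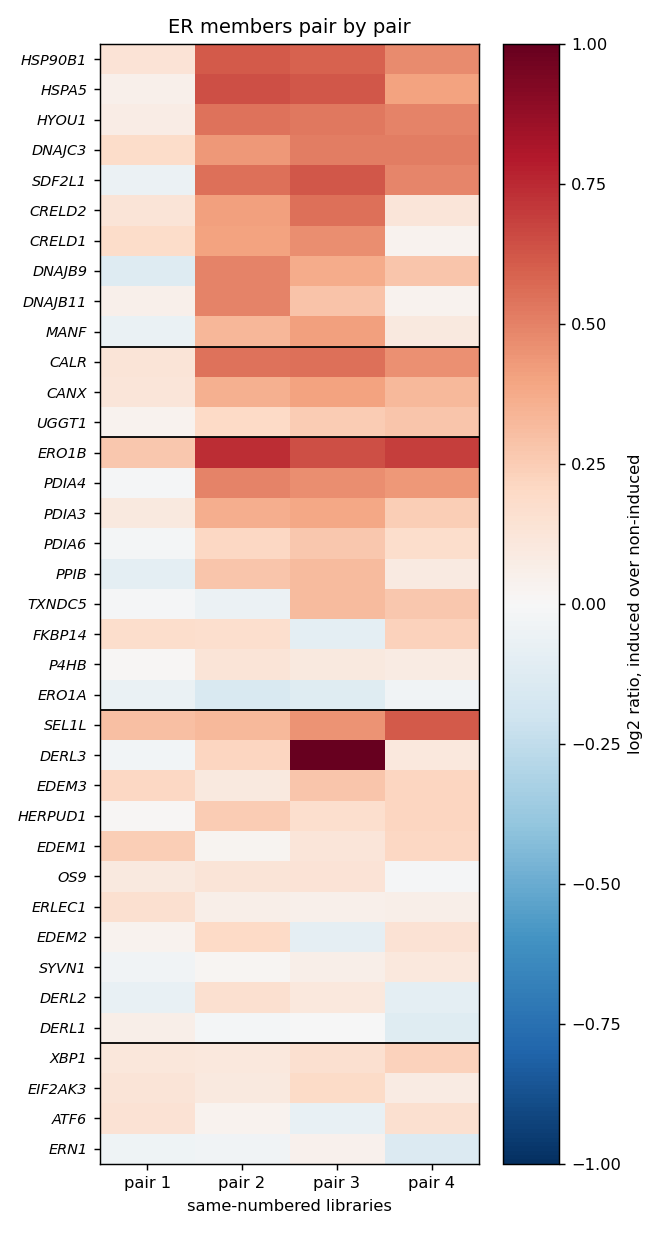
Log2 ratio of each member, induced over the same-numbered non-induced library (log2 CPM with a prior count of 2), for pairs 1 to 4; lines separate chaperones, lectin cycle, folding enzymes, ERAD, and sensors with XBP1. Pair 1 is pale for most chaperones, and DERL3 in pair 3 (1.00) rests on few reads.

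The arms of the response were set side by side by the factor to which each gene is usually assigned, though many of these genes respond to both factors and both lists overlap with ERAD and the folding enzymes. Of the 10 genes of the ATF6 arm (HSPA5, HSP90B1, HYOU1, PDIA4, CRELD2, HERPUD1, CALR, MANF, SDF2L1 and SEL1L), 6 rose with the block, all 10 had a positive log2 change, and the median was 0.40. Of the 8 genes of the XBP1 arm (DNAJB9, DNAJC3, DNAJB11, PDIA6, EDEM1, DERL1, DERL2 and SYVN1), 3 rose, 7 had a positive log2 change, and the median was 0.15. With the block, 7.51% of all tested genes rose and 50.1% had a positive log2 change. The median was 0.30 for the lectin cycle, 0.15 for the folding enzymes and 0.088 for ERAD. Without pairs 1 to 4 in turn, the count of genes that rose was 10, 2, 2 and 2 in the ATF6 arm and 3, 2, 1 and 1 in the XBP1 arm. It was 2, 3, 1 and 1 in ERAD and 5, 2, 2 and 2 in the folding enzymes. Over all tested genes, 808 of 15769, 1118 of 15624, 706 of 15640 and 427 of 15841 rose in the same fits. Members of a list are not replicates, so the arms were not tested against each other.

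The members with an ERSE in their promoter window had a median log2 change of 0.36, with 7 of 8 called. The 25 with a window and no ERSE had a median of 0.15, with 7 called, where 7.51% of all tested genes rose. The exception among the 8 was HSPA5, whose site stands first in the list above. Of those called, CANX and ERO1B with the element and DNAJC3 and SEL1L without it kept the call with each pair left out. The others lost it without at least 1 pair. Whether the element bears on the rise was not tested. XBP1 and PDIA6 carry the element and had log2 changes of 0.15 and 0.16, while DNAJC3 and SEL1L, which had log2 changes of 0.41 and 0.42, had no match to either element in these windows. The 3 genes with ERSE-II had log2 changes of 0.41 (HYOU1), 0.39 (SDF2L1) and 0.15 (HERPUD1).

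Pair 1 gave the smallest log2 ratio of the 4 pairs for 20 of the 37 members. The median log2 ratio of the ATF6 arm was 0.063, 0.52, 0.54 and 0.44 in pairs 1 to 4, that of the XBP1 arm 0.016, 0.19, 0.20 and 0.14, that of the folding enzymes -0.013, 0.21, 0.32 and 0.23 and that of ERAD 0.055, 0.13, 0.12 and 0.11, where all tested genes had medians of 0.0001 to 0.007. The 10 ATF6 arm genes summed to 5243, 5116, 5136 and 4477 CPM in induced libraries 1 to 4, against 4928, 3467, 3486 and 3304 CPM in non-induced libraries 1 to 4. Non-induced library 1 lay above induced library 4 and below the other 3 induced libraries. Among single members, non-induced library 1 was above all of non-induced 2 to 4 for 21 of 37 and below them for 6. It stood at 2.78 times the mean of non-induced 2 to 4 for HERPUD1, 2.17 times for HSPA5, 1.99 times for DERL3, 1.68 times for XBP1 and for DNAJB9, and 1.54 times for SDF2L1, but at 0.534 times for ERO1B and 0.663 times for ERLEC1. CRB2 was lowest in library 1 of both groups, and its pair ratios were 206, 163, 174 and 205-fold in pairs 1 to 4. In the induced group, library 1 was above all of libraries 2 to 4 for 9 members and below them for 14. The matching shares of all tested genes were not computed for these counts or for the 20 members with pair 1 smallest. The libraries numbered 1 stood apart over all genes, so these counts do not set the members apart from other genes. With 1 pair of this kind, whether its response differs from that of the other pairs was not tested. Without both libraries numbered 1, induced libraries lay wholly above non-induced ones for 19 members and wholly below for 0. The share of all tested genes in this smaller comparison was not computed. Fewer libraries lie apart more easily, so the shares given for all 8 libraries do not serve as its background.

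**Figure D5:**
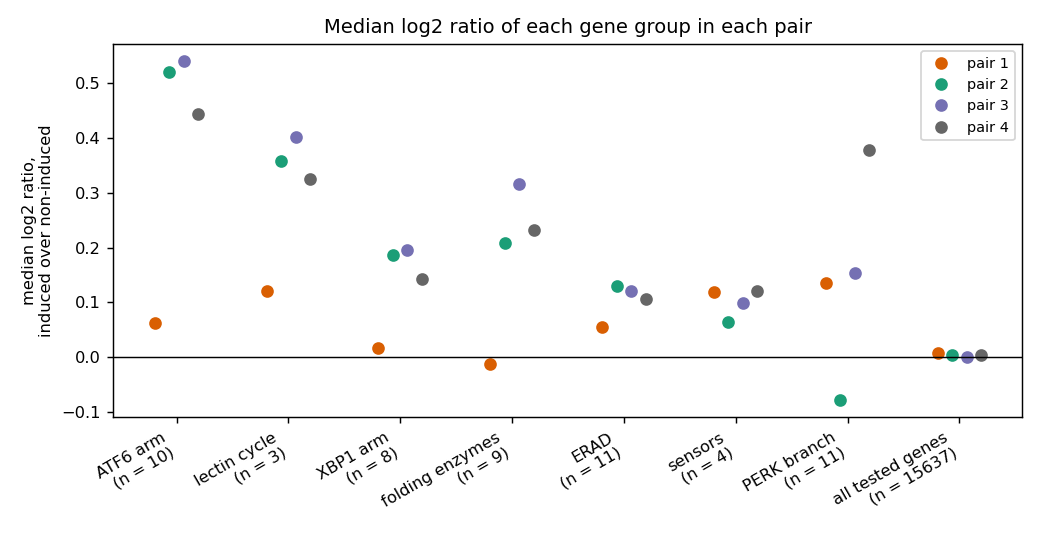
Median log2 ratio, induced over non-induced, of each gene group in pairs 1 to 4 (coloured points); n is the number of genes tested in a group. The ATF6 arm lies at 0.44 to 0.54 in pairs 2 to 4 and at 0.06 in pair 1, and all tested genes lie near 0 in every pair.

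All members together took 0.969%, 1.02%, 1.02% and 0.911% of the scaled reads of induced libraries 1 to 4, against 0.923%, 0.782%, 0.775% and 0.744% in non-induced libraries 1 to 4. The summed level was 1.05, 1.30, 1.31 and 1.23 times the partner's in pairs 1 to 4. Per kilobase of exon, CALR was the highest member, at 592 ± 50.00 in induced and 442 ± 27.8 in non-induced libraries (CPM per kb, mean ± SD, n = 4 each). HSPA5 followed, at 307 ± 73.1 in induced and 238 ± 108 in non-induced libraries, and P4HB, at 215 ± 25.1 in induced and 203 ± 17.4 in non-induced libraries, with SDs that overlap those of HSPA5. In non-induced libraries PPIB and HSP90B1 came next, while in induced libraries HSP90B1, at 238, stood above P4HB and PPIB. The lowest was DERL3, at 0.55 ± 0.123 in induced and 0.452 ± 0.188 in non-induced libraries, below ERO1B and TXNDC5. Pseudogenes that resemble members held few reads: PDIA3P1 had 6517 over the 8 libraries, against 78049 for PDIA3, and HSP90B2P had 2064, against 158183 for HSP90B1. How reads were divided between such copies is not known.

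Further genes of the same pathways were taken from 4 lists. Of 28 tested genes of further ER folding, 3 rose (10.7%) and 1 fell (3.57%) with the block, against 7.51% and 6.29% of all tested genes, and the median log2 change was 0.0075. DNAJC10, a reductase of ERAD substrates, rose (log2 change 0.20, SE 0.043, adjusted p = 0.00843), as did the Hsp70 relative HSPA13 (log2 change 0.20, SE 0.043, adjusted p = 0.00805) and the thioredoxin-like TMX4 (log2 change 0.21, SE 0.052, adjusted p = 0.0176), while QSOX1, a secreted disulfide oxidase, fell (log2 change -0.11, SE 0.033, adjusted p = 0.0432). Of 26 genes of further ERAD, 4 rose (15.4%) and 1 fell (3.85%), with a median of 0.013. Those that rose were the deubiquitinase YOD1 (log2 change 0.23, SE 0.053, adjusted p = 0.0115), the ubiquitin-conjugating enzyme UBE2J1 (log2 change 0.15, SE 0.037, adjusted p = 0.0183), ERLIN2 (log2 change 0.15, SE 0.039, adjusted p = 0.0207) and the rhomboid protease RHBDD1 (log2 change 0.21, SE 0.063, adjusted p = 0.0428), while UBE2J2 fell (log2 change -0.11, SE 0.036, adjusted p = 0.0499). DESeq2 with the block called none of these 5 and 0 of the 26 in either direction.

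Of 15 tested regulators of the response 4 rose (26.7%) and 0 fell, against 7.51% and 6.29% of all tested genes, with a median of 0.061. They were NFYA, a subunit of the factor that binds CCAAT (log2 change 0.22, SE 0.049, adjusted p = 0.00971), GTF2I (log2 change 0.26, SE 0.056, adjusted p = 0.0095), WFS1, an ER membrane protein (log2 change 0.28, SE 0.079, adjusted p = 0.0296), and MBTPS2, a protease that releases ATF6 from the membrane (log2 change 0.19, SE 0.057, adjusted p = 0.0415). Without pairs 1 to 4 in turn, the number that rose was 3, 3, 1 and 0 for further ER folding, 1, 3, 1 and 1 for further ERAD and 2, 4, 2 and 0 for the regulators, and the number that fell was 1, 3, 0 and 0 for further ER folding and 0, 0, 0 and 0 for further ERAD, so that the call of UBE2J2 was lost without any 1 pair. DESeq2 with the block called 3 higher and 0 lower in further ER folding, 1 higher among the regulators and 3 higher in the PERK branch. In the PERK branch 3 of 11 genes rose (27.3%) and 0 fell, and without pairs 1 to 4 in turn 3, 4, 3 and 3 rose. They were the pseudokinase gene TRIB3 (log2 change 0.29, SE 0.045, adjusted p = 0.00123), the transcription factor DDIT3 (log2 change 0.46, SE 0.078, adjusted p = 0.00176) and SESN2 (log2 change 0.29, SE 0.050, adjusted p = 0.00214), while ATF4 did not pass (log2 change -0.10, SE 0.035, adjusted p = 0.0659). With all 8 libraries, none of the genes of these 4 lists passed without the block by edgeR or DESeq2. Of the 80 tested, 8 had an unadjusted p under 0.05 by edgeR, against 9.38% of all tested genes. Without both libraries numbered 1, the unblocked edgeR fit called 1 of 10 tested genes of the PERK branch higher. It called 0 higher in further ER folding, further ERAD and the regulators, where 242 of 15769 genes rose. The PERK branch summed to 1469, 752, 817 and 924 CPM in induced libraries 1 to 4, against 1336, 772, 794 and 871 CPM in non-induced libraries 1 to 4, so that it too was highest in the libraries numbered 1.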

How the data were processed

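Single reads of 75 bases were counted per Ensembl gene by the authors, and the deposited table of raw read counts was used for every value. The submitters' processing notes name bcl2fastq, Trimmomatic 0.38, HISAT2 2.1.0, HTSeq 0.11.1 and DESeq2 1.24.0, with hg38 and GRCh38 as builds and no role for any of them. A second deposited table, of normalized values, was not used. Annotation release and strand setting are not stated in the labels.

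Genes were kept by filterByExpr (minimum count 10), scaled by TMM and compared with the edgeR 4.0.16 quasi-likelihood test (R 4.3.3, robust, two-sided, Benjamini-Hochberg over all 15637 genes, threshold 0.05). CPM use TMM-scaled totals, and ± is the SD over 4 libraries. Depth of 16829454 to 23081616 counts makes counting error small for all but the lowest members. No 2 libraries of a group agreed within sampling noise (chi-square per gene 2.89 or more).

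The design first set for the test has no block, and a second fit blocks on the replicate number. Since the libraries met the check of pairing below, log2 changes and adjusted p in the text come from the blocked fit unless said otherwise. Over 11502 genes with mean log2 CPM above 2, same-numbered libraries correlated at 0.648 to 0.911 in their deviations from the group means, differently numbered ones at -0.775 to 0.667, and 8 of 8 correlated best with their own number. The pairing comes from the shared numbers and from these data, and the p-values describe the spread among these samples only, which may be technical. Further alternatives were DESeq2 1.42.0, other scalings, filters and thresholds, and leaving out libraries or pairs.

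The members, lists and tests were chosen with earlier results of these data known. All 37 members are named, and of each further list up to 4 called genes with the smallest p with the block, plus those that fell and ATF4, which were chosen after their values were seen. Some marker genes are named where they passed, lay apart or were at or near 0, and 1 marker is not reported here.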

Additional observations from a re-analysis of the deposited data

Results flagged for a closer look

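Each gene's 4 values in a group were checked for a library far from the other 3, over 76 groups (37 members and CRB2, each in 2 groups), and chance alone marks about 1 in 20 groups. Of the 9 groups with such a library, 8 concern a library numbered 1. Induced library 1 was far above the others for HERPUD1, at 131.5 CPM against 50.6 to 60.9 CPM, and far below them for CRB2, at 1734 CPM against 4252 to 4599 CPM.

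In the non-induced group, library 1 was far above the other 3 for HSPA5 (1565 CPM against 681 to 747 CPM), HERPUD1 (130.2 against 42.4 to 52.6 CPM), XBP1 (163.8 against 91.7 to 101.5 CPM), MANF (110.7 against 77.5 to 79.7 CPM) and SDF2L1 (46.3 against 29.2 to 31.1 CPM). It was far below them for OS9 (116.2 against 132.9 to 135.9 CPM). Non-induced library 3 was far below the others for CRELD2, at 32.8 CPM against 38.5 to 38.7 CPM.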

How the results depend on the processing

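The count of members called lower was 0 in every alternative run of both fits. The count called higher without the block was 0. It was 15 with the replicate block, 1 with no filter (CALR), 6 with DESeq2, 14 with DESeq2 and the replicate block and 14 without both libraries numbered 1; leaving out any 1 library gave 0. The block count of 15 was 0 with no replicate block, 6 at FDR 0.01 and 6 to 19 over the fits that leave out a pair, lowest without pairs 3 and 4, and 13 to 20 under the other scalings, filters, DESeq2 and no robust estimation. Calls over all tested genes moved too. With the block, 485 of 15637 genes rose at FDR 0.01, 551 of 12871 with DESeq2 and 427 to 1118 over the fits that leave out a pair. Without the block, 16 of 31603 rose with no filter, 80 of 14023 with DESeq2 and 242 of 15769 without both libraries numbered 1. The cause was not tested. HERPUD1 and EDEM1 were also lost with the replicate block under upper quartile scaling (adjusted p 0.0537 and 0.062), EDEM1 under RLE scaling (0.0542), and both with no robust estimation (0.0544 and 0.056). DESeq2 with the replicate block lost HERPUD1, EDEM1, EDEM3 and XBP1 and, like the fit with no robust estimation, called HSPA5, SDF2L1 and PDIA4. With no filter the block fit also called DNAJB11, MANF, PDIA4, PPIB and SDF2L1. ERO1B was too low to be tested under the filter of 10 CPM in 4 libraries.

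Log2 changes turned sign in 13 of the results for single members, none of them called in the fit concerned. HERPUD1 and XBP1 turned only in fits without the block, and both were called with it. Without the block, HERPUD1 turned without induced library 1 (-0.32) and non-induced 2 (-0.058) or 3 (-0.036), and leaving out 1 library gave -0.32 to 0.65. XBP1 turned without induced 1 (-0.062; range -0.062 to 0.37), ERN1 without induced 4 (0.021) or non-induced 1 (0.040; range -0.13 to 0.040), and DERL1 without non-induced 4 (0.018; range -0.073 to 0.018). DERL2 turned without induced 3 (-0.012) or non-induced 1 (-0.0025; range -0.012 to 0.086), and ERLEC1 without non-induced 1 (-0.050; range -0.050 to 0.18). With the replicate block, DERL1 turned without pair 4 (0.0051; range -0.052 to 0.0051) and DERL2 without pair 2 (-0.018) or 3 (-0.0032; range -0.018 to 0.064). Over all genes 6 were called without the block and 2159 with it, and upper quartile scaling gave fewer higher than lower calls with it (1076 against 1132). Depth limits DERL3 most, at 23 to 55 reads a library.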
